A study of Mus musculus with 6 samples.

Results

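Matrilins are secreted proteins of the extracellular matrix that are encoded by the 4 genes *Matn1*, *Matn2*, *Matn3* and *Matn4*. All 4 symbols were found by name among the 44788 gene symbols of a bulk RNA-seq count table of mouse tail tendon, and their levels were compared between wild-type (WT) mice and mice without functional *Mkx*. Tail tendons of C57BL/6 mice, WT (3 samples) or Mkx-/- (3 samples), were sequenced without any further treatment. The labels give an age of 3 weeks for both groups, and the text of the study gives 4 weeks. *Mkx* encodes Mohawk, a homeobox transcription factor that tendon cells need for their collagen matrix. The labels name no tissue-specific driver of the deletion, and bulk RNA-seq measures all cell types of the tissue together. Whether each sample came from 1 mouse or from a pool is not given in the sources used here, so the spread between samples may be partly technical.

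A matrilin subunit carries von Willebrand factor A and EGF-like domains, in numbers that differ between the matrilins, and a coiled coil at its C-terminal end. The von Willebrand factor A domains bind other matrix proteins, and subunits join into oligomers through the coiled coil. The oligomers act as adaptors that tie collagen fibrils to proteoglycans and to one another. Matrilin-1 and matrilin-3 are known mainly from cartilage and can assemble into mixed oligomers, whereas matrilin-2 and matrilin-4 are found in many connective tissues. Mutations of human *MATN3* cause skeletal dysplasias such as multiple epiphyseal dysplasia.

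In build mm9 of the mouse genome, *Matn1* (ENSMUSG00000040533.7) lies on the plus strand of chromosome 4 from 130500300 to 130511390, and *Matn2* (ENSMUSG00000022324.7) on the plus strand of chromosome 15 from 34236436 to 34366029. *Matn3* (ENSMUSG00000020583.4) lies on the plus strand of chromosome 12 from 8954735 to 8978834, and *Matn4* (ENSMUSG00000016995.10) on chromosome 2, minus strand, from 164215129 to 164230660. The genes differ in size. *Matn2* spans 129.6 kb with 19 exons in its longest transcript, while *Matn1* spans 11.1 kb with 8 exons, *Matn3* 24.1 kb with 8 exons and *Matn4* 15.5 kb with 7 exons. Their longest coding sequences are 1500 bases in *Matn1*, 2868 in *Matn2*, 1443 in *Matn3* and 1872 in *Matn4*.

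RefSeq promoter sequences (build GRCm38.p6) were matched for *Matn1*, *Matn3* and *Matn4*, each running from 250 bases before a transcript start to 50 bases after it. Those of *Matn3* and *Matn1* are shown, 5′ to 3′ on the gene's own strand, because these are the paralogs known mainly from cartilage, of which 1 was upregulated and the other had no reads. Capitals mark each TTGGC (or GCCAA on the other strand), the core motif of nuclear factor I proteins, and each GGGCGG (or CCGCCC), the GC box. Both sequences had an exact match in mm9, at chr12:8954485-8954784 for *Matn3* and at chr4:130500050-130500349 for *Matn1*.
Matn3: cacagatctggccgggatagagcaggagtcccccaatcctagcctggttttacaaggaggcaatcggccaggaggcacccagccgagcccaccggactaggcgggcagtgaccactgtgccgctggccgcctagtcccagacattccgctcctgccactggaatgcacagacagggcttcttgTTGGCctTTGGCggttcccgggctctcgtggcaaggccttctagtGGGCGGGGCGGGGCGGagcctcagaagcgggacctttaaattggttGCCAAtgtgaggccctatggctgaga
Matn1: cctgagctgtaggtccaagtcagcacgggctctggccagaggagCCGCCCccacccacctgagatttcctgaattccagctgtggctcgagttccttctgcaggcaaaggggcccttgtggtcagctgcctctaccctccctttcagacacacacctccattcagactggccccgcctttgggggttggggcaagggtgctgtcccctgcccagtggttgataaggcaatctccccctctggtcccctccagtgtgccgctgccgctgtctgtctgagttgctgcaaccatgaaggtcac
The *Matn3* window held 3 nuclear factor I motifs and 3 GC boxes that overlap one another in a single run, and the *Matn1* window held 0 nuclear factor I motifs and 1 GC box. Across all 32851 promoter windows of the same length, 46.7% held at least 1 nuclear factor I motif and 35.7% at least 1 GC box. ACAAT (or ATTGT), the core motif of SOX proteins, and TATAAA (or TTTATA), the TATA box, were in neither window, and were in 31% and 13.6% of all windows. These matches describe letters only and do not show binding.

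The libraries held between 10835070 and 14160301 counts. Reads of *Mkx* remained in the Mkx-/- libraries, at 38.9 to 56.8 CPM against 135 to 144 CPM in WT, a log2 difference of -1.60 (edgeR adjusted p = 0.00183). Which exons these reads came from cannot be read from gene-level totals. Across the 14550 genes with enough counts to be tested, 275 were upregulated and 193 downregulated in Mkx-/- tendons (edgeR, adjusted p below 0.05 with at least a 2-fold change). With scaling by library size only, this split was 711 to 154. WT replicate 1 stood apart from the other WT libraries, with a chi-square per degree of freedom of 34.8 and 36.4 against each of them and 7.59 between them. WT replicate 3 was the only library with reads of the Y-linked gene *Ddx3y* (301 counts against 0). The tissue label was checked with 7 tendon markers, all of which were detected and tested. *Tnmd*, which encodes tenomodulin, averaged 1083 ± 148 CPM (SD, n = 3) in WT against 1065 ± 207 CPM (SD, n = 3) without *Mkx*, and *Thbs4* was the only one of the 7 that was upregulated. *Col1a2*, the one with the highest CPM, differed by -1.02 on the log2 scale (edgeR adjusted p = 0.0933).

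To determine which matrilins tendon cells express, and whether their levels changed without *Mkx*, the 4 genes were first examined one by one. *Matn2* was by far the most abundant, *Matn3* was upregulated in Mkx-/- tendons, *Matn4* was lower on average with groups that overlapped, and *Matn1* had no reads in any library. Of the 3 matrilins with enough counts, 1 was upregulated and 0 were downregulated, where 1.89% of all tested genes were upregulated and 1.33% downregulated (3.22% together, and 5.44% at any size of change with an adjusted p below 0.05). In bulk tissue, a change in the number of expressing cells and a change of RNA per cell cannot be told apart.

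**Figure D1:**
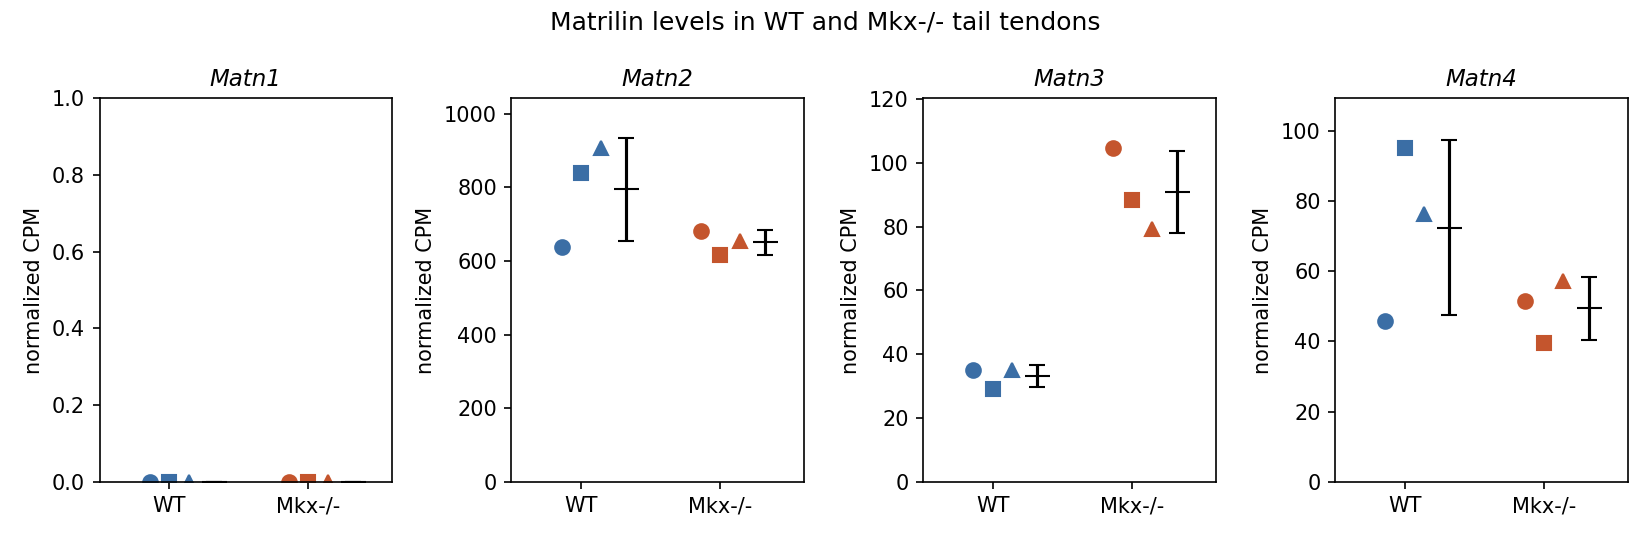
Normalized CPM (vertical axes, linear, from 0, each gene on its own scale) of the 4 matrilins in WT (blue) and Mkx-/- (orange) tail tendons. Circles, squares and triangles are replicates 1, 2 and 3, and the black marks are means with the SD of 3 libraries. All Mkx-/- libraries lay above all WT libraries for *Matn3*, the groups overlapped for *Matn2* and *Matn4*, and *Matn1* had 0 counts throughout.

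*Matn3* encodes matrilin-3, the matrilin of developing and mature cartilage. Its raw counts were 446, 298 and 438 in WT replicates 1 to 3, against 1142, 1259 and 1001 in Mkx-/- replicates 1 to 3. After normalization these were 35.1, 29.2 and 35.1 CPM in WT and 105, 88.5 and 79.4 CPM in Mkx-/- tendons. The lowest Mkx-/- library was thus above the highest WT library by more than the whole range of either group. A lack of overlap in the upward direction, with a gap of any size, was seen in 14.6% of all tested genes (28.2% in either direction). *Matn3* averaged 33.2 ± 3.39 CPM (SD, n = 3) in WT, against 90.8 ± 12.8 CPM (SD, n = 3) in Mkx-/- tendons. The log2 fold change was 1.45 (standard error 0.15, 95% confidence interval 1.12 to 1.79), which is 2.74-fold, with an adjusted p of 0.00181 from edgeR's quasi-likelihood test. *Matn3* ranked 52 by p among the 14550 tested genes, and 161 by fold change among the 275 upregulated genes. It was thus among the genes with the smallest p rather than among those with the largest changes. It remained upregulated when any of the 6 libraries was left out, with a log2 fold change between 1.32 and 1.54 (edgeR adjusted p between 0.00168 and 0.0179). The log2 fold change was 1.49 without WT replicate 1 and 1.48 without WT replicate 3.

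*Matn2* encodes matrilin-2, a matrilin of loose and dense connective tissue, nerve sheaths and basement membrane regions. It had 637, 840 and 907 CPM in the WT libraries, against 682, 616 and 654 CPM in the Mkx-/- libraries. The first WT library fell inside the range of the Mkx-/- libraries, while the other WT libraries lay above it, so that the groups overlapped. *Matn2* averaged 795 ± 141 CPM (SD, n = 3) in WT, against 650 ± 33.2 CPM (SD, n = 3) in Mkx-/- tendons. The log2 fold change of -0.29 (standard error 0.16) did not pass the threshold (edgeR adjusted p = 0.343). Its 95% confidence interval of -0.66 to 0.085 did not reach a change of 2-fold in either direction. Without WT replicate 1 the log2 fold change was -0.43 (edgeR adjusted p = 0.112).

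*Matn4* encodes matrilin-4, which is also found in cartilage but is widespread in other connective tissues. Its levels were 45.8, 95.01 and 76.3 CPM in the WT libraries, against 51.6, 39.6 and 57.2 CPM in the Mkx-/- libraries. Here too WT replicate 1 lay within the range of the Mkx-/- libraries and the other WT libraries lay above it. *Matn4* averaged 72.3 ± 24.9 CPM (SD, n = 3) in WT, against 49.5 ± 8.95 CPM (SD, n = 3) in Mkx-/- tendons. The log2 fold change was -0.55 (standard error 0.26, 95% confidence interval -1.14 to 0.042, edgeR adjusted p = 0.254). Without WT replicate 1, the difference was past an adjusted p of 0.05 (log2 fold change -0.79, edgeR adjusted p = 0.0324) but within a 2-fold change, so that *Matn4* was still not called downregulated. The count of *Matn4* may include reads of *Rbpjl*, a gene on the opposite strand that overlaps it over 2020 bases and shares 149 exonic bases, since the treatment of strand in counting is not given in the sources used here. *Rbpjl* itself was at or below 0.981 CPM in every library.

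*Matn1* encodes matrilin-1, the cartilage matrix protein with which the family was first described. It had 0 counts in all 6 libraries. A count of 0 allows up to 3 counts in a library, which is 0.211 to 0.294 CPM, for counting error only. Per kilobase of exon, *Matn3* stood at least 66.0-fold above this limit in every WT library and at least 221-fold above it in every Mkx-/- library. The paralog known as the partner of matrilin-3 in mixed oligomers was therefore not detectable at this depth in either genotype, including the tendons in which *Matn3* had risen.

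To compare the matrilins with one another, their levels were divided by the length of the union of their annotated exons, which is 3609 bases for *Matn2*, 3014 for *Matn3* and 5175 for *Matn4*. On this scale *Matn2* had 220 ± 39.0 normalized CPM per kb in WT and 180 ± 9.19 in Mkx-/- tendons (SD, n = 3 each). In WT tendons *Matn4*, with 13.98 ± 4.80 CPM per kb, and *Matn3*, with 11.001 ± 1.12 CPM per kb, did not differ beyond their spread. In Mkx-/- tendons the order of these neighbours was clear in every library, with 30.1 ± 4.24 CPM per kb for *Matn3* and 9.56 ± 1.73 CPM per kb for *Matn4*. The *Matn3* to *Matn4* ratio was 1.32, 0.529 and 0.790 in the WT libraries, against 3.48, 3.83 and 2.38 in the Mkx-/- libraries. Among 12870 tested genes with an annotated length, *Matn2* ranked 95 by level in WT and 137 in Mkx-/- tendons, and *Matn3* moved from rank 2898 to rank 1030.

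The make-up of the matrilin pool was then compared between the genotypes. The summed level was 245 ± 42.6 CPM per kb in WT and 220 ± 13.0 CPM per kb in Mkx-/- tendons (SD, n = 3 each, exact permutation test, two-sided p = 0.4). *Matn3* made up 5.92%, 3.72% and 4.19% of this sum in the WT libraries, against 14.9%, 14.1% and 12.05% in the Mkx-/- libraries. Its mean share was 4.61% ± 1.16 in WT against 13.7% ± 1.46 without *Mkx* (SD, n = 3 each), and the groups did not overlap (exact permutation test, two-sided p = 0.1, the smallest p that 3 against 3 samples allow). The share of *Matn2* was 89.8% ± 0.649 in WT and 82.0% ± 1.02 in Mkx-/- tendons, again without overlap (exact p = 0.1). The share of *Matn4* was 5.61% ± 1.30 and 4.34% ± 0.686, with overlap (exact p = 0.2). The *Matn3* to *Matn2* ratio, which does not depend on the normalization between libraries, was 0.0661, 0.0417 and 0.0463 in WT and 0.184, 0.172 and 0.145 in Mkx-/- libraries. On the log2 scale this ratio differed by 1.72 between the genotypes (exact p = 0.1). The log2 ratio of *Matn3* to *Matn4* differed by 1.95 (exact p = 0.1), and that of *Matn4* to *Matn2* by -0.23 (exact p = 0.5). Adjusted over the 7 quantities compared in this way, the lowest of these p-values was 0.175.

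**Figure D2:**
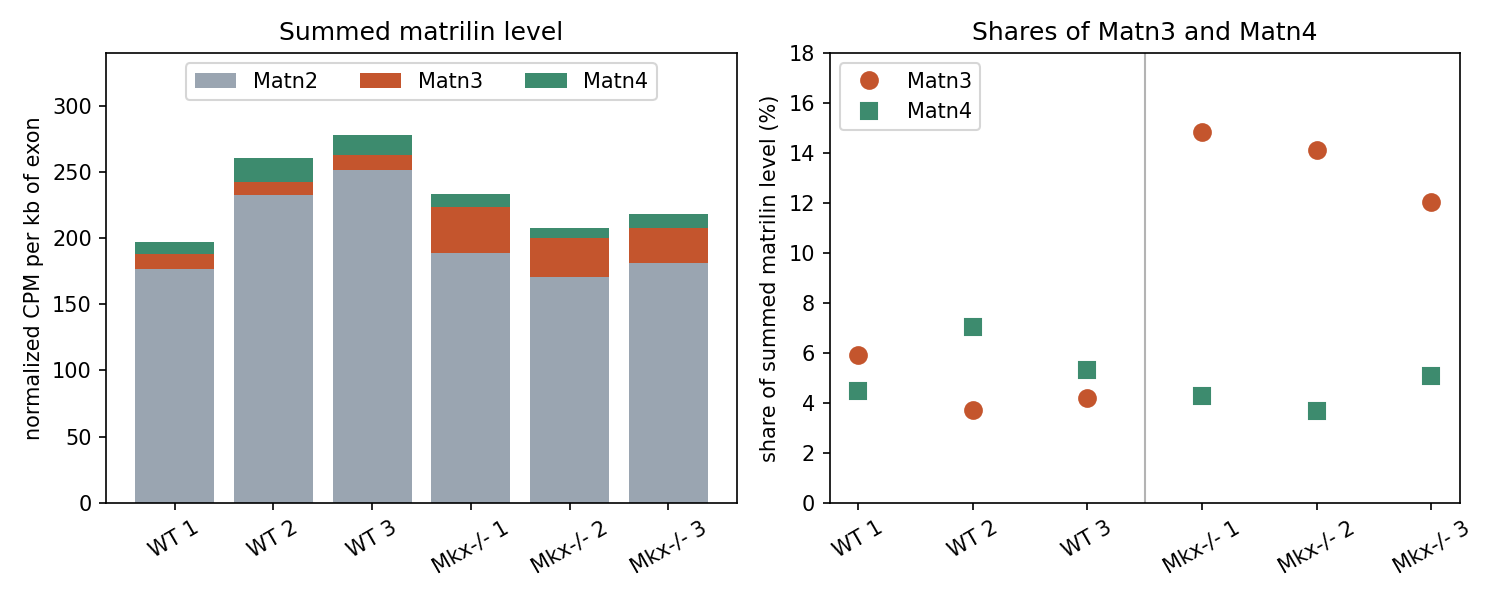
Left, summed matrilin level in each library (vertical axis, normalized CPM per kb of exon, from 0), stacked by gene. Right, shares of *Matn3* (circles) and *Matn4* (squares) in that sum, in percent. *Matn2* makes up most of every bar, and the share of *Matn3* lies between 3.72% and 5.92% in WT and between 12.05% and 14.9% in Mkx-/- libraries.

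The matrilins also differed in how they varied from library to library. Over the 6 libraries, the Pearson correlation of log2 levels was 0.901 between *Matn2* and *Matn4*, -0.647 between *Matn2* and *Matn3*, and -0.644 between *Matn3* and *Matn4*. After the group means were subtracted it was 0.845 for *Matn2* and *Matn4*, -0.074 for *Matn2* and *Matn3*, and -0.45 for *Matn3* and *Matn4*. These values describe 6 libraries that share the same normalization. WT replicate 1 was the lowest WT library for both *Matn2* and *Matn4*.

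The genes most like each matrilin over the 6 libraries were sought among the 10295 tested genes that averaged 5 CPM or more. For *Matn2* these were *Farp2* (r = 0.997), *Scx* (r = 0.996), *Mrfap1*, *Hapln4* and *Igip*. *Scx* encodes scleraxis, a transcription factor of tendon progenitors, and *Hapln4* a hyaluronan and proteoglycan link protein. None of these 5 genes was called changed in Mkx-/- tendons. For *Matn4* they were *Ppp2r5b* (r = 0.993), *Gm15421*, *Sf3b3*, *Etv4* and *Evl*, of which none was called either. For *Matn3* they were *Rab31* (r = 0.995), *Abcc1*, *Hs6st1*, *Pdp1* and *C1rl*. Of these, *Abcc1*, an efflux transporter gene, and *C1rl* were upregulated, by 1.18 and 1.48 on the log2 scale (edgeR adjusted p = 0.00460 and 0.00417). After the group means were subtracted, the 3 genes most like *Matn2* were *Ppp6r1*, *Pgm3* and *Entpd5*, and those most like *Matn4* were *Lgals1*, *Pfn1* and *Fis1*, of which none was called. These correlations are descriptions, over libraries that fall into 2 genotypes and share one normalization.

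Matrilins work by binding other matrix proteins, and 19 genes of known binding partners were therefore examined next. Of the 17 with enough counts, 3 were upregulated and 0 downregulated, where 1.89% and 1.33% of all tested genes were. In 8 of the 17 all Mkx-/- libraries lay above all WT libraries, which held for 14.6% of all tested genes. The median log2 fold change of the 17 was 0.53, against -0.0037 over all genes tested. The upregulated partners were *Acan*, *Bgn* and *Fn1*. *Acan* encodes aggrecan, the large proteoglycan of cartilage, and had 21.3, 34.5 and 40.3 CPM in WT and 172, 109 and 160 CPM in Mkx-/- libraries, a log2 change of 2.20 (edgeR adjusted p = 0.00380). *Bgn* encodes biglycan, a small proteoglycan that links matrilins to collagen VI, and had 964, 1268 and 1009 CPM in WT and 5175, 4358 and 4777 CPM in Mkx-/- libraries, a log2 change of 2.14 (edgeR adjusted p = 0.00115). *Fn1* encodes fibronectin, a ligand of matrilin-2, and rose by 1.53 on the log2 scale (edgeR adjusted p = 0.00173). For each of these 3 genes the groups did not overlap.

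Partners with a role in cartilage, other than *Acan*, gave a mixed picture. *Comp*, which encodes the cartilage oligomeric matrix protein, had 762, 723 and 694 CPM in WT and 1200, 1808 and 997 CPM in Mkx-/- libraries. All Mkx-/- libraries were higher, but the log2 fold change of 0.88 did not pass the threshold (edgeR adjusted p = 0.0598). *Col2a1*, the fibrillar collagen of cartilage, averaged 748 ± 261 CPM (SD, n = 3) in WT against 705 ± 220 CPM (SD, n = 3) without *Mkx* (log2 fold change -0.084, edgeR adjusted p = 0.905). Of the collagen IX genes, whose products sit on collagen II fibrils and bind matrilin-3, *Col9a2* had 2.40 ± 0.728 and 4.40 ± 0.522 CPM (edgeR adjusted p = 0.108), *Col9a3* had 1.68 ± 0.877 and 2.68 ± 1.12 CPM (adjusted p = 0.406), and *Col9a1* had too few counts to be tested. Per kilobase of exon, *Matn3* at 30.1 CPM in Mkx-/- tendons was higher than *Acan* at 20.0 CPM and *Col9a2* at 1.42 CPM, and lower than *Col2a1* at 117 CPM and *Comp* at 551 CPM.

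Further partners, which like the upregulated *Bgn* and *Fn1* are shared with ordinary connective tissue, were not called. The collagen VI genes *Col6a1*, *Col6a2* and *Col6a3* had log2 differences of -0.26, -0.11 and -0.0058, and *Dcn*, which encodes decorin, had -0.033, with edgeR adjusted p between 0.499 and 0.992 for these 4 genes. *Fbn1*, which encodes fibrillin-1, was higher with an edgeR adjusted p of 0.0458 and a log2 fold change of 0.65, which is below the threshold for a call. Of the basement membrane partners of matrilin-2, *Nid1*, *Lamb1* and *Lamc1* had log2 differences of -0.10, 0.57 and 0.44 (edgeR adjusted p = 0.674, 0.126 and 0.0837). For *Fbn1*, *Lamb1* and *Lamc1* all Mkx-/- libraries lay above all WT libraries (14.6% of all tested genes), while for *Nid1*, *Dcn* and the collagen VI genes the groups overlapped.

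**Figure D3:**
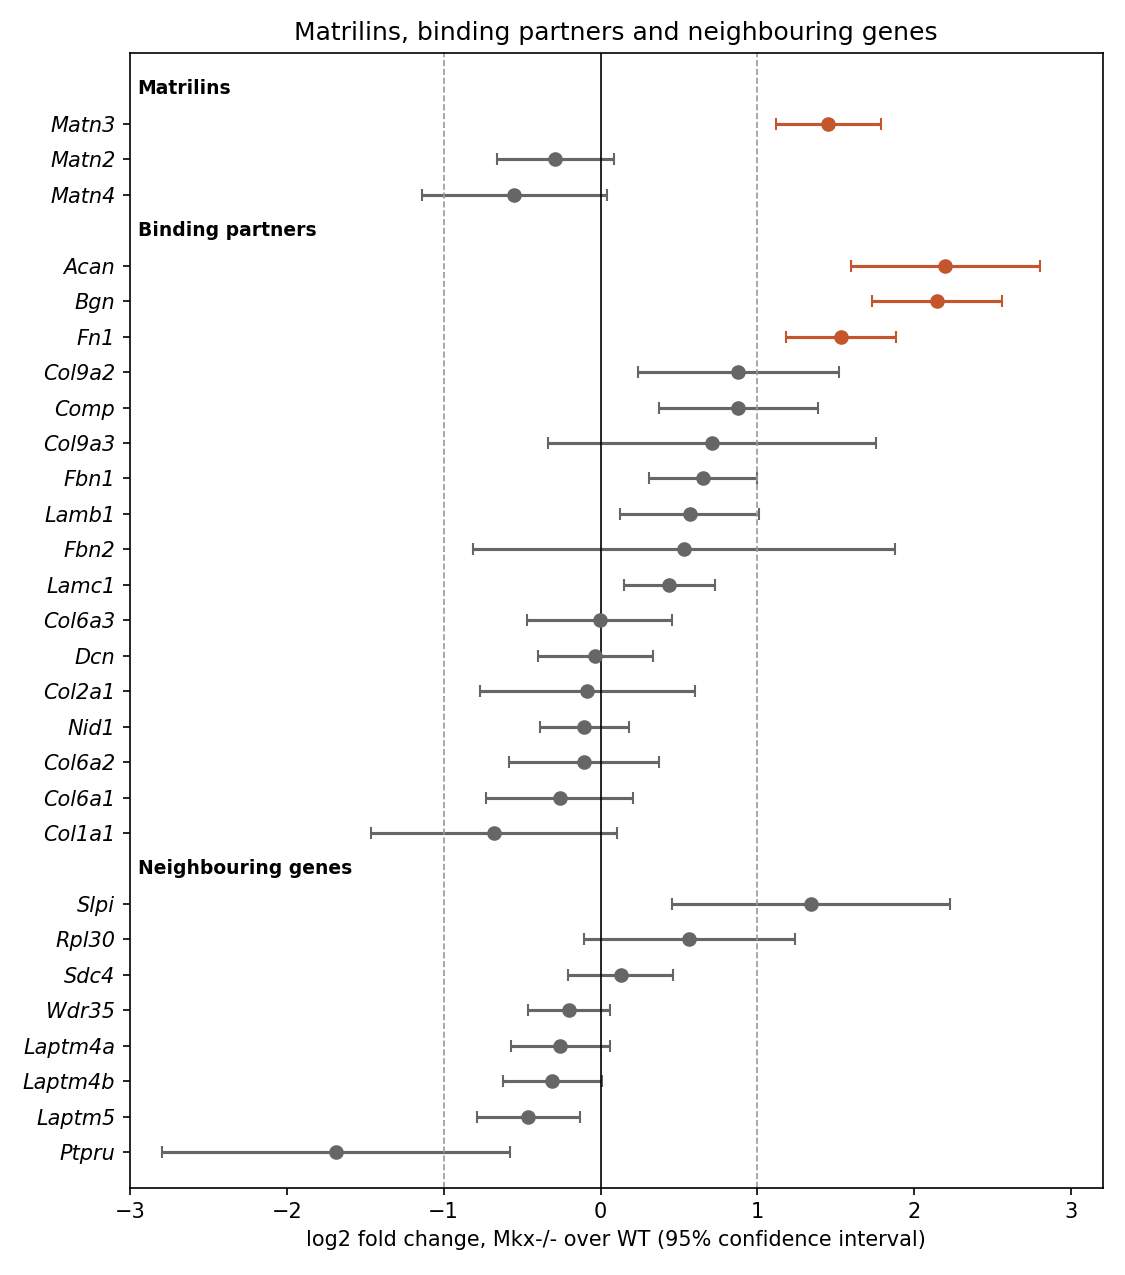
Log2 fold change of Mkx-/- over WT (horizontal axis) with its 95% confidence interval from edgeR for the 3 tested matrilins, the 17 tested binding partners and the 8 tested neighbouring genes. Orange points were upregulated, grey points were not called, and dashed lines mark a log2 fold change of -1 and 1. *Matn3*, *Acan*, *Bgn* and *Fn1* lie to the right of the upper line with their whole intervals.

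Proteases of the Adamts family that cut aggrecan, some of which also cut matrilins, were examined beside *Matn3*. Of 7 tested aggrecanases, edgeR called 0 upregulated and 0 downregulated (1.89% and 1.33% of all tested genes), with a median log2 fold change of -0.071. In 2 of the 7, *Adamts9* and *Adamts15*, all Mkx-/- libraries lay below all WT libraries (13.6% of all tested genes). An unadjusted p under 0.05 was found for 3 of the 7, and for 22.6% of all tested genes. *Adamts15* averaged 42.8 ± 2.67 CPM in WT against 23.6 ± 5.39 CPM without *Mkx* (SD, n = 3 each), a log2 difference of -0.86 (edgeR adjusted p = 0.0270). It was thus lower, without overlap, but short of a 2-fold change. Without WT replicate 1, 2 of the 7 were downregulated, and without Mkx-/- replicate 3, 1 of them. *Adamts9* and *Adamts20* had log2 differences of -0.89 and 0.46 (edgeR adjusted p = 0.0823 and 0.164). *Adamts4* and *Adamts5*, the main aggrecanases, had log2 differences of -0.037 and 0.70 (edgeR adjusted p = 0.958 and 0.251).

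Transcription factors that are known to act at matrilin or other cartilage promoters were examined as well. Of 8 such genes, 7 were tested and 0 were called in either direction by edgeR (3.22% of all tested genes), with a median log2 fold change of -0.21. An unadjusted p under 0.05 was found for 2 of the 7, a share near the 22.6% of all tested genes. *Sox9*, the master regulator of chondrocytes, had 2.05, 3.24 and 3.44 CPM in WT and 5.13, 4.57 and 7.93 CPM in Mkx-/- libraries. The groups did not overlap, but the log2 fold change of 1.01 did not pass the threshold (edgeR adjusted p = 0.0891). The study itself reported *Sox9* as significantly upregulated without *Mkx*. With scaling by library size only, and with a filter of 1 count in any library, 1 of the regulators was upregulated. *Sox6*, which acts together with *Sox9*, lay lower in all Mkx-/- libraries, a log2 difference of -0.34 (edgeR adjusted p = 0.197). *Sox5* and the 4 nuclear factor I genes had adjusted p above that of *Sox6*, with *Nfia* at -0.26 (edgeR adjusted p = 0.321). *Nkx3-2* had 0 counts in every library.

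Von Willebrand factor A domains occur in other matrix proteins too. Of 16 tested genes of such relatives, 0 were upregulated and 1 was downregulated (1.89% and 1.33% of all tested genes), with a median log2 fold change of 0.22. An unadjusted edgeR p under 0.05 was found for 8 of the 16, and for 22.6% of all tested genes. All Mkx-/- libraries lay above all WT libraries in 4 of the 16 and below them in 1 (14.6% and 13.6% of all tested genes). The downregulated gene was *Vit*, which encodes vitrin, with 276, 262 and 283 CPM in WT and 92.8, 146 and 94.97 CPM in Mkx-/- libraries. Its log2 fold change was -1.30 (edgeR adjusted p = 0.00902). *Vit* and *Matn3* thus moved in opposite directions, each without overlap of the groups. *Coch*, which encodes cochlin and is a close relative of *Vit*, had 25.8, 3.53 and 5.61 CPM in WT and 330, 56.3 and 13.9 CPM in Mkx-/- libraries. The groups overlapped, and the log2 fold change of 3.50 did not pass the threshold (edgeR adjusted p = 0.115). *Vwa1* and *Col22a1* lay higher in all Mkx-/- libraries, by 0.74 and 2.36 on the log2 scale (edgeR adjusted p = 0.0753 and 0.0898). The number of upregulated relatives was 2 with DESeq2 and with scaling by library size only, and 3 with a filter of 1 count in any library. Omitting either WT replicate 1 or Mkx-/- replicate 1 gave 1 upregulated relative.

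The genomic neighbours of the matrilins were then compared with the matrilins themselves. *Matn1*, *Matn2* and *Matn3* each have a gene of the Laptm family, which encodes lysosomal membrane proteins, as their nearest coding gene upstream on the same strand, at a distance of 8.2 kb (*Laptm5*), 22.4 kb (*Laptm4b*) and 9.2 kb (*Laptm4a*). The downstream neighbour of *Matn3* is *Wdr35*, at 1.9 kb, and *Matn4* is flanked by *Slpi* at 0.3 kb and *Sdc4* at 19.1 kb. Of the 8 tested neighbours, 0 were upregulated and 0 downregulated, where 1.89% and 1.33% of all tested genes were. *Laptm5*, *Ptpru*, *Laptm4a* and *Wdr35* lay lower in all Mkx-/- than in all WT libraries, and *Slpi* lay higher. Such a separation in either direction was seen in 28.2% of all tested genes. Beside *Matn3*, *Laptm4a* averaged 527 ± 52.02 CPM in WT against 441 ± 36.7 CPM without *Mkx* (SD, n = 3 each, edgeR adjusted p = 0.317). *Wdr35* averaged 31.4 ± 1.74 CPM against 27.3 ± 1.23 CPM (SD, n = 3 each, edgeR adjusted p = 0.344), so that neither flanking gene rose with *Matn3*. *Slpi*, next to the 3′ end of *Matn4*, averaged 1.39 ± 0.833 CPM in WT against 3.47 ± 0.327 CPM without *Mkx* (SD, n = 3 each, log2 fold change 1.34, edgeR adjusted p = 0.0846). *Laptm5*, a gene of blood cells beside *Matn1*, was read at 19.6 to 34.0 CPM. *Ptpru*, 813 kb downstream of *Matn1*, was at 40.7, 12.3 and 10.97 CPM in WT replicates 1 to 3 and between 5.79 and 7.66 CPM without *Mkx* (edgeR adjusted p = 0.0834). *Rpl30*, 4.2 kb downstream of *Matn2*, did not pass the threshold either (edgeR adjusted p = 0.303).

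Since *Matn3* is known as a cartilage gene, the levels of cell type markers were set beside it. Of 13 tested cartilage markers, 2 were upregulated and 0 downregulated (1.89% and 1.33% of all tested genes), with a median log2 fold change of 0.71. An unadjusted edgeR p under 0.05 was found for 7 of the 13, and for 22.6% of all tested genes. All Mkx-/- libraries lay above all WT libraries in 5 of the 13 and below them in 1 (14.6% and 13.6% of all tested genes). The summed level of the list was 1487 to 1663 CPM in WT and 1977 to 2285 CPM in Mkx-/- libraries. *Chad* and *Col2a1* weighed most in this sum. *Chad* averaged 717 ± 227 CPM in WT against 1160 ± 302 CPM without *Mkx* (SD, n = 3 each), with overlap (edgeR adjusted p = 0.160). *Col2a1* was not higher on average (748 against 705 CPM). The upregulated markers were *Acan* and *Ucma*, the gene of a matrix protein of upper-zone growth plate cartilage, which averaged 6.57 ± 1.46 CPM in WT against 72.9 ± 6.80 CPM without *Mkx* (SD, n = 3 each, log2 fold change 3.47, edgeR adjusted p = 0.000158). *Epyc*, a small proteoglycan gene of cartilage, differed by 0.97 on the log2 scale (edgeR adjusted p = 0.0708). *Hapln1* and *Col10a1*, which mark cartilage matrix assembly and hypertrophic chondrocytes, had log2 differences of -0.22 and 0.15 (edgeR adjusted p = 0.737 and 0.895). *Ihh* and *Col9a1* had too few counts for a test. Of the 13 tested markers, 9 thus had log2 fold changes above 0 and 4 below 0, and *Matn3* was upregulated as *Acan* and *Ucma* were.

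Markers of other cell types differed between the groups as well. The summed level of 14 skeletal muscle markers was 103 to 449 CPM in WT and 610 to 3194 CPM in Mkx-/- libraries. Of the 14, 3 (*Tnnt3*, *Tnnc2* and *Tnni2*) were upregulated, against 1.89% of all tested genes. In 12 of the 14 all Mkx-/- libraries lay above all WT libraries, which held for 14.6% of all tested genes. *Acta1*, the skeletal muscle actin gene and the most abundant of the 14, did not pass the threshold (edgeR adjusted p = 0.0727). The order of the Mkx-/- libraries was the same for this sum (3194, 1527 and 610 CPM) and for *Matn3* (105, 88.5 and 79.4 CPM). After subtraction of the group means, *Pkd2* (r = 0.996) and the muscle genes *Myoz1* (r = 0.995) and *Pgam2* (r = 0.993) were the genes most like *Matn3*. Between the WT library with the most muscle RNA (449 CPM) and the Mkx-/- library with the least (610 CPM), *Matn3* stood at 35.1 against 79.4 CPM. Whether muscle RNA had a part in the level of *Matn3* was not tested.
The summed level of 11 Schwann cell markers, which matters for matrilin-2 because nerve sheaths contain it, was 4807 to 6191 CPM in WT and 7252 to 13305 CPM in Mkx-/- libraries. EdgeR called 0 of the 11 (3.22% of all tested genes). An unadjusted edgeR p under 0.05 was found for 10 of them, against 22.6% of all tested genes. *Matn2* stood at 616 and 654 CPM in Mkx-/- replicates 2 and 3, the libraries with the highest Schwann cell sums. Endothelial markers summed to 52.0 to 68.9 CPM in WT and 103 to 138 CPM in Mkx-/- libraries. *Erg* was upregulated among 9 tested (1.89% of all tested genes) and *Tek* was not called. In 6 of the 9 all Mkx-/- libraries lay above all WT libraries (14.6% of all tested genes). Macrophage markers summed to 695 to 733 CPM and 437 to 495 CPM, with *Lyz2* as the most abundant. *Emr1* and *Mrc1* were downregulated among 11 tested (1.33% of all tested genes). In 10 of the 11 all Mkx-/- libraries lay below all WT libraries (13.6% of all tested genes). The part of these cell types in the levels of the matrilins was not tested.

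**Figure D4:**
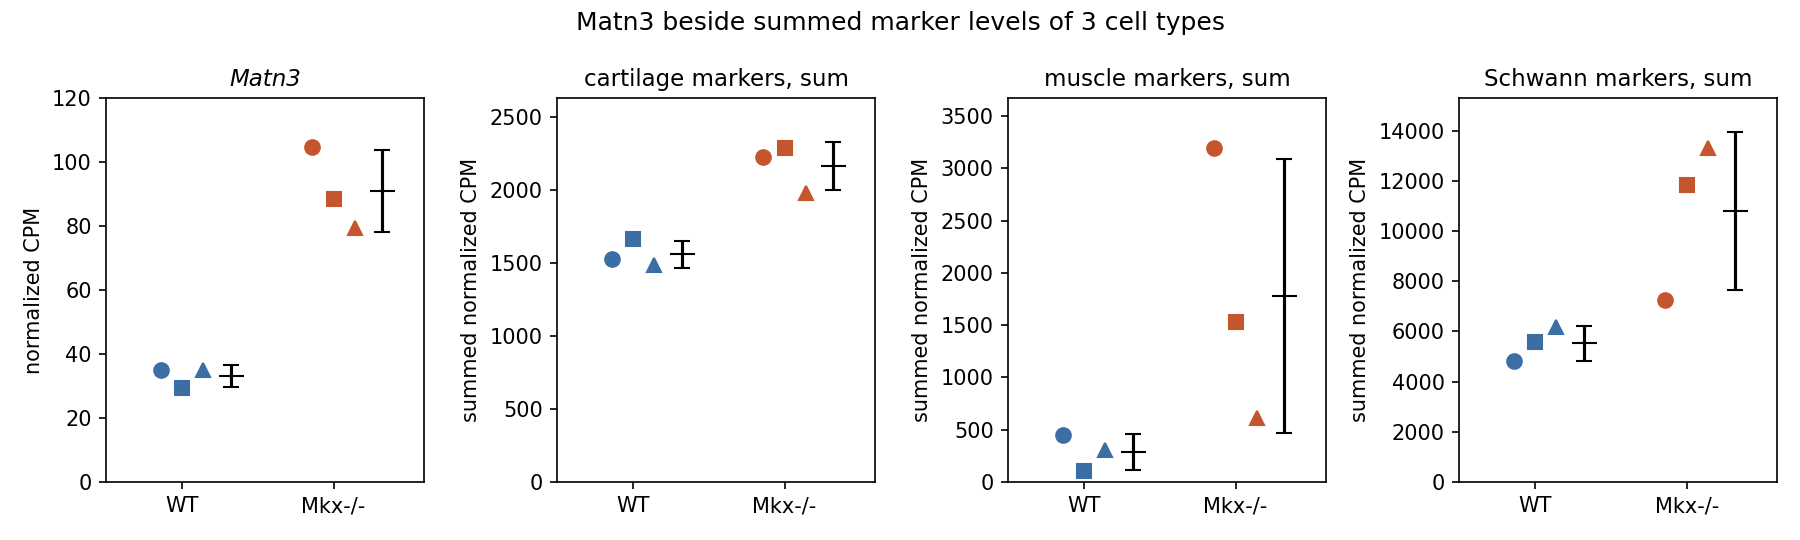
*Matn3* (normalized CPM) and the summed normalized CPM of cartilage, skeletal muscle and Schwann cell markers (vertical axes linear, from 0) in WT (blue) and Mkx-/- (orange) libraries. Circles, squares and triangles are replicates 1, 2 and 3, and black marks are means with the SD of 3 libraries. All 4 quantities were higher in every Mkx-/- than in every WT library, and the muscle sum ran from 610 to 3194 CPM within the Mkx-/- group.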

How the data were processed

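Total RNA of tail tendons (3 WT and 3 Mkx-/- samples) was made into libraries with the Ion Total RNA-Seq Kit v2 and sequenced on the Ion Proton. The authors trimmed and quality-filtered the reads, aligned them to mm9, and deposited raw counts per gene symbol without normalization. The counting program, its annotation and its treatment of strand are not given in the sources used here. All 6 columns were matched to samples by their titles. The depth of 10835070 to 14160301 counts per library makes values near 10 counts imprecise.

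From the deposited counts, fold changes and normalized CPM came from edgeR 4.0.16 (R 4.3.3) (TMM, filterByExpr, quasi-likelihood fit on genotype, Benjamini-Hochberg adjustment over all 14550 tested genes). Levels per kb used the exon lengths of GENCODE vM1 on mm9. On simulated counts for this comparison, with 200 of 14550 genes shifted by 2 on the log2 scale, edgeR recovered 181 with 3 false calls and DESeq2 1.42.0 recovered 181 with 8. Exact permutation tests were run in scipy 1.17.1. Replicates differed beyond counting noise (chi-square per degree of freedom 7.59 to 36.4), so no library was the same library sequenced again. Whether separate libraries shared the same RNA cannot be told from these values.

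The matrilins and the 13 gene lists (binding partners, aggrecanases, regulators, von Willebrand factor A relatives, and markers of 9 cell types) were chosen with earlier results of these data known. The text names the matrilins, *Mkx*, called members and the 3 smallest p of the first 4 lists and the cartilage list, called and most abundant members of the other lists (except for Schwann cells), neighbouring genes, and the genes most like each matrilin. A Schwann cell marker is not reported here and was left out of its list. Any other list member was picked for naming with its values known. The alternatives were DESeq2, other scalings and filters, a robust fit, a block for replicate number, and omission of 1 library at a time.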

Additional observations from a re-analysis of the deposited data

How the results depend on the processing

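*Matn3* was upregulated, and *Matn2* and *Matn4* had log2 fold changes below 0, in all 14 alternatives to the fit. Over these and the original fit, the log2 fold change ranged from 1.32 to 1.69 for *Matn3* (adjusted p up to 0.0179), from -0.43 to -0.025 for *Matn2* and from -0.79 to -0.27 for *Matn4*. Leaving out 1 library gave -0.79 to -0.32 for *Matn4*. Scaling by library size only raised the median of all genes to 0.25, with 1.69 for *Matn3* and -0.025 for *Matn2*. The counts over all genes moved more. Upregulated genes numbered 711 with scaling by library size only and 541 with a filter of 1 count in any library, and 103 to 321 when a library was left out (103 without WT replicate 3, 119 without WT replicate 2, 155 and 177 without Mkx-/- replicates 2 and 3). Downregulated genes numbered 322 with that filter and 112 to 248 when a library was left out (112 and 113 without WT replicates 3 and 2, 121 without Mkx-/- replicate 3). The causes were not tested. Same-numbered libraries did not deviate together (correlations of -0.000308, -0.235 and 0.313, with 2 of 6 libraries closest to their own number), so the numbers do not pair them. The replicate block gave 195 upregulated and 136 downregulated genes, 1 upregulated von Willebrand factor A relative, and log2 fold changes of 1.45 for *Matn3* (adjusted p = 0.0139), -0.27 for *Matn2* and -0.50 for *Matn4*. The share of *Matn3* was higher by 9.07 percentage points, by 8.98 with the longest transcript as length, and by 8.48 to 9.89 without 1 library. Partner and cartilage upregulated counts were 5 each with scaling by library size only. Depth limits *Matn1*, with 0 counts, and *Sox9*, *Col9a2* and *Col9a3*, which have few.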

Other observations

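Osteoblast and osteocyte markers summed to 3.07 to 5.45 CPM in WT and 6.67 to 7.37 CPM in Mkx-/- libraries. Only *Alpl* and *Runx2* of the 10 had enough counts for a test, with 0 called (3.22% of all tested genes). For *Alpl* and for *Runx2* all Mkx-/- libraries lay above all WT libraries, which held for 14.6% of all tested genes. *Alpl*, the phosphatase of mineralizing cells, averaged 1.09 ± 0.670 CPM in WT against 3.31 ± 0.674 CPM without *Mkx* (SD, n = 3 each, log2 fold change 1.58, edgeR adjusted p = 0.0722). *Runx2* averaged 0.652 ± 0.157 CPM in WT against 1.82 ± 0.673 CPM without *Mkx* (SD, n = 3 each, log2 fold change 1.49, edgeR adjusted p = 0.0734). The study itself reported *Runx2* as significantly upregulated without *Mkx*. *Mepe* had 0 counts in every library, and *Sp7*, *Ibsp*, *Bglap* and *Dmp1* were not tested. Adipocyte markers summed to 2.80 to 3.94 CPM in WT and 2.75 to 5.55 CPM in Mkx-/- libraries, with *Fabp4* as the 1 tested gene (edgeR adjusted p = 0.479). Keratinocyte markers summed to 13.6 to 29.1 CPM and 24.5 to 28.5 CPM, and 0 of 5 tested were called (3.22% of all tested genes). *Trp63*, a transcription factor of basal keratinocytes and the most abundant of the list, averaged 15.5 ± 4.42 CPM in WT against 7.66 ± 2.88 CPM without *Mkx* (SD, n = 3 each, edgeR adjusted p = 0.102), lower without overlap. *Krt5*, a keratin gene of the same cells, averaged 1.16 ± 1.42 CPM in WT against 6.13 ± 0.757 CPM without *Mkx* (SD, n = 3 each, edgeR adjusted p = 0.0990), higher without overlap.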
